A study of Mus musculus with 13 samples.

Results

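The 9 nuclear genes followed here encode core machinery that transcribes and copies the mitochondrial genome, and their mRNAs were measured in mouse oocytes with and without the long noncoding RNA Sirena1. The 9 genes, of 54232 in the count table, were chosen by name for their known roles: Tfam, Tfb2m, Polrmt, Tefm, Tfb1m, Lrpprc, Slirp, Polg and Polg2. All 9 were found in the table. RNA had been sequenced from 13 pools of 25 cells. The GV groups were fully grown oocytes with an intact germinal vesicle, from wild-type (WT, n = 3) or Sirena1 Null females (n = 3). The MII groups were eggs arrested at metaphase II, taken 12 to 14 hours after hCG, from WT (n = 3) or Null females (n = 4). Per the labels, every pool is of the strain written C57BL6/J, from superovulated females. IBMX in the medium is listed at 0.2 mM for all 13 pools, GV and MII alike. The Null allele is a Cas9 deletion of the lncRNA promoter, and the line was bred with C57BL/6NCrl animals. The labels do not say which pools came from different females, so p-values here measure only the spread between these pools, part of which may be technical.

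Mitochondria carry their own small circular genome, which encodes subunits of the respiratory chain and the RNAs of the mitochondrial ribosome. TFAM coats and bends this DNA and, with TFB2M, lets the polymerase POLRMT start transcription, while TEFM keeps the polymerase moving; TFB1M methylates an rRNA of the small ribosomal subunit, LRPPRC and SLIRP hold mitochondrial mRNAs stable, and POLG with its partner POLG2 copies the genome. Oocytes hold very many copies of mitochondrial DNA, replication of which is largely paused in the mature egg, and nuclear transcription is largely silent from the fully grown oocyte through maturation.

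Promoters of several of these genes carry the short motifs of the nuclear factors known to govern mitochondrial genes, and the stretches of 5 tested genes are shown because the genes are treated below as a group. RefSeq sequences of the build GRCm38.p6 were searched on both strands in the 250 bases before the listed transcript start, for all 9 genes and for 32851 windows in all. The core CCGGAAG of GABP and other ETS factors was present in 6 of the 9 genes (Tfam, Polrmt, Tefm, Polg, Polg2 and Slirp) and in 6.91% of all windows. The NRF1 core GCGCATGC was present only in Polrmt among the 9, and in 2.256% of all windows. The YY1 core AAGATGG was present only in Slirp, and in 4.49% of all windows. The cyclic AMP element TGACGTCA was in none of the 9, and in 1.55% of all windows. In the 9 genes no match overlapped a match to another motif. Below, each stretch runs 5′ to 3′ on the strand of the gene, with the motif in capitals. A match describes the letters of the sequence and does not show that a factor binds there.
Tfam, GABP/ETS core 47 bases before the start, chr10:71238074-71238102, minus strand: cctgccgcggaCCGGAAGtccgggcttcc
Polrmt, NRF1 core 133 bases before the start, chr10:79746696-79746725, minus strand: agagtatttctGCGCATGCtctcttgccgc
Polrmt, GABP/ETS core on the opposite strand 43 bases before the start, chr10:79746607-79746635, minus strand: ccctaagagcgCTTCCGGcagtcgcagaa
Tefm, GABP/ETS core 9 bases before the start, chr11:80142154-80142173, minus strand: agcacacgaaaCCGGAAGtt
Polg, GABP/ETS core 38 bases before the start, chr7:79466294-79466322, minus strand: gaggacctcacCCGGAAGtccctctgcac
Polg2, GABP/ETS core on the opposite strand 29 bases before the start, chr11:106779549-106779577, minus strand: cgggtgacgctCTTCCGGgggcgtggtct
Slirp held 3 matches to the GABP/ETS core, which lie 146, 48 and 11 bases before its start on chromosome 12. Lrpprc, Tfb1m and Tfb2m held no match to any of the 4 motifs in this window.

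Levels are in CPM, counts scaled to a common library total with TMM factors, and given as mean ± SD over pools. Fold changes are log2 values with the standard error (SE) of an edgeR quasi-likelihood fit on all 13 libraries, and adjusted p is the Benjamini-Hochberg value over 20143 genes tested, with a threshold of 0.05. Total counts ran from 30867614 to 41285507 per library. All 10 oocyte markers (such as Gdf9, Zp3 and Mos) were detected in every library. Sirena1 itself stood at 3006 ± 90.2 CPM in WT GV oocytes against 24.8 ± 1.58 in Null, and at 4519 ± 221 CPM in WT eggs against 41.3 ± 4.41 in Null. Some libraries stood apart. The 15 markers of cumulus and granulosa cells summed to 497 and 167 CPM in GV Null replicates 2 and 3, against 33.9 to 65.7 CPM in the other libraries. All 15 were detected in those 2 libraries. In the 3 WT egg libraries 6 to 8 of the 15 were at 0, and the 15 summed to 40.4 to 45.5 CPM. MII Null replicate 4 lay nearer the GV libraries on the leading principal component, at 25.7, while the remaining MII Null libraries lay between 65.8 and 81.4. A CPM value is a share of a library, so less RNA per cell and fewer cells of a type cannot be told apart. The labels list the libraries as poly(A) RNA, so rises and falls below are in RNA recovered as such. Lengths of poly(A) tails were not measured. Read totals do not give amounts per egg, and levels of different genes are not compared, since the values are not scaled to transcript length.

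From GV oocyte to MII egg several of the factors changed, and between Null and WT none was called. In WT maturation, Tfam, Polrmt and Lrpprc fell and Tfb2m rose. In Null, the same 4 genes changed in the same directions, and Tfb1m and Polg2 fell as well. Slirp had 10 counts or fewer in every library and did not pass the filter on low counts, which left 8 tested factors.

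Counted over the list, 4 of the 8 tested factors passed in WT maturation, 1 higher and 3 lower. Among all genes tested 42.7% passed, 19.9% higher and 22.8% lower. Among the genes tested with a mean of at least 5 CPM, 57.3% passed, 34.5% higher and 22.7% lower. In Null maturation 6 of 8 passed, 1 higher and 5 lower, beside 49.0% of all genes, 22.1% higher and 26.9% lower. With a mean of at least 5 CPM, 62.4% of genes passed in Null, 39.3% higher and 23.2% lower. The median log2 change of the 8 factors was -0.52 in WT and -0.49 in Null, against 0.01 and -0.05 over all genes. Over genes with a mean of at least 5 CPM that median was 0.14 in WT and 0.14 in Null. In WT the stages did not overlap for 5 of the 9 factors (Slirp included), 1 higher and 4 lower in eggs. Among the genes tested, which leave out Slirp, the stages did not overlap for 58.3%, 28.2% higher and 30.1% lower. In Null they did not overlap for 6 of the 9, 1 higher and 5 lower, beside 46.4% of all genes, 21.2% higher and 25.2% lower. With so few genes, these shares describe the list and give no test of it. The difference between the Null and WT changes had adjusted p = 0.999 for each of the 8.

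Between genotypes, 0 of the 8 tested factors passed in GV oocytes and 0 in eggs, beside 0.0546% of all genes at each stage. In the difference between stages 0 of 8 passed, beside 0.00496% of all genes. At an unadjusted p under 0.05, edgeR counted 0 of the 8 factors in each of these 3 comparisons, beside 6.66% of all genes in GV oocytes, 6.35% in eggs and 3.38% in the difference between stages. DESeq2 also called 0 of 8 in each of these 3 comparisons. In GV oocytes Null and WT pools did not overlap for Polg2, where Null was higher, and for Slirp, where Null was lower. Among the genes tested, which leave out Slirp, these pools did not overlap for 12.8%, 6.83% with Null higher and 5.93% with Null lower. In eggs they did not overlap for Lrpprc, with Null higher, as for 6.07% of all genes, 2.94% with Null higher. A change of 1.5-fold in either direction lies outside the 95% interval of every tested factor but Polg2 in GV oocytes, and of every tested factor but Tefm and Polg2 in eggs.

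**Figure D1:**
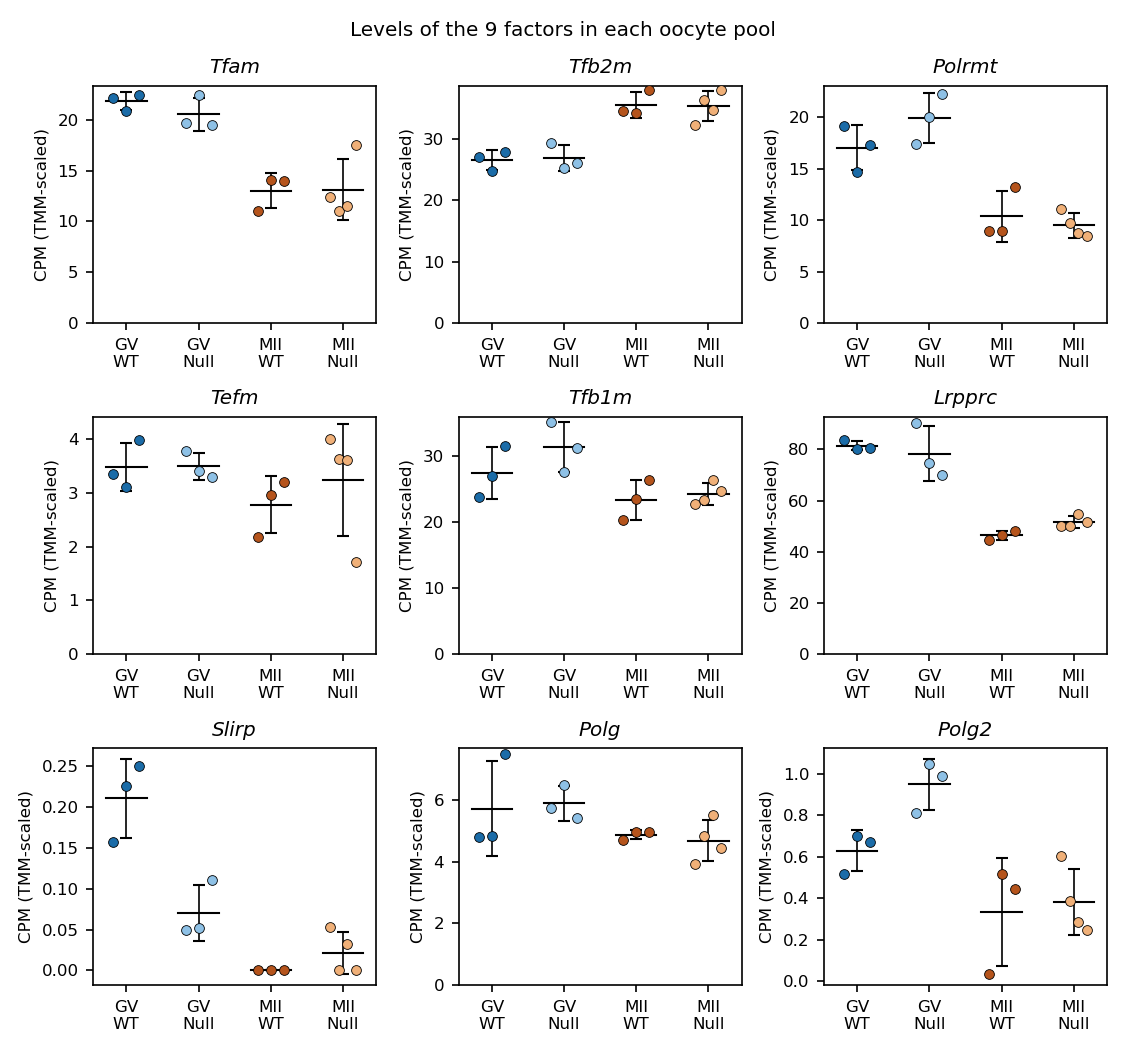
Level of each of the 9 factors in every oocyte pool, in TMM-scaled CPM on linear axes, by stage and genotype. The axes start at 0, or slightly below 0 for Slirp and Polg2. Points are pools, bars the group mean and whiskers the SD (n = 3, and n = 4 for MII Null). Tfam, Polrmt and Lrpprc lie lower in all MII pools than in all GV pools, and Tfb2m lies higher.

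Tfam, which packages mitochondrial DNA and opens its promoters, is on chromosome 10 (71225468 to 71238328, minus strand, GRCm38.p6). It stood at 22.1, 20.8 and 22.5 CPM in the WT GV pools and at 19.7, 22.4 and 19.5 CPM in the Null GV pools. In eggs it stood at 11.03, 14.1 and 14.0 CPM in WT and at 12.4, 10.99, 11.5 and 17.5 CPM in Null. No egg pool reached the lowest GV pool, and the egg pool nearest to it was MII Null replicate 4. From GV to MII, Tfam fell by 0.74 (SE 0.15) on the log2 scale in WT, adjusted p = 0.000628. In Null it fell by 0.65 (SE 0.14), adjusted p = 0.000900. Eggs thus held 59.7% of the GV level in WT and 63.8% in Null. Between genotypes the pools overlapped at both stages. The log2 difference, Null against WT, was -0.09 (95% interval -0.40 to 0.22) in GV oocytes and 0.01 (-0.29 to 0.31) in eggs. Without MII Null replicate 4 the egg difference was -0.14, and it did not pass there either.

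Tfb2m, the factor that melts the mitochondrial promoter together with the polymerase, is on chromosome 1 (179528052 to 179546305, minus strand). In the fit on all libraries it was the only tested factor with a value above 0 in maturation, in both genotypes. Its GV levels were 27.1, 24.8 and 27.96 CPM in WT and 29.3, 25.2 and 26.1 CPM in Null. Its egg levels were 34.5, 34.2 and 37.9 CPM in WT and 32.3, 36.4, 34.8 and 38.01 CPM in Null. Every egg pool stood above every GV pool. Tfb2m rose by 0.42 (SE 0.10) on the log2 scale in WT, adjusted p = 0.00169, and by 0.40 (SE 0.09) in Null, adjusted p = 0.00131. The genotypes overlapped at both stages. The log2 difference was 0.01 (95% interval -0.19 to 0.21) in GV oocytes and -0.01 (-0.19 to 0.18) in eggs, the narrowest intervals but for Lrpprc. Scaling by library size alone, which shifts the median of all genes by -0.20 in WT maturation and -0.23 in Null maturation, left Tfb2m at 0.22 in WT (adjusted p = 0.0693) and 0.17 in Null (adjusted p = 0.109), short of the threshold. In Null, the log2 change was 0.27 without GV Null replicates 2 and 3, a fit that leaves replicate 1 alone in that group. The Null call was also lost in a fit on all libraries that took the cumulus marker level as covariate (log2 0.29, adjusted p = 0.0679).

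Polrmt, the RNA polymerase of mitochondria, is on chromosome 10 (79736125 to 79746604, minus strand). GV pools held 19.1, 14.7 and 17.3 CPM in WT and 17.4, 20.0 and 22.2 CPM in Null. Egg pools held 8.94, 8.93 and 13.2 CPM in WT and 11.1, 9.70, 8.71 and 8.45 CPM in Null. The highest egg pool, a WT pool, lay below the lowest GV pool, also a WT pool. Polrmt fell by 0.72 (SE 0.16) on the log2 scale in WT, adjusted p = 0.00137, to 60.8% of the GV level. In Null it fell by 1.07 (SE 0.15), adjusted p = 1.05e-05, to 47.7% of the GV level. The difference between these changes was -0.35 (SE 0.22) and did not pass the threshold (adjusted p = 0.999). Null and WT pools overlapped at each stage, with a log2 difference of 0.22 (95% interval -0.10 to 0.55) in GV oocytes and -0.13 (-0.45 to 0.19) in eggs.

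Tefm, the elongation factor that acts on POLRMT, is on chromosome 11 (80136674 to 80142871, minus strand). Its level was 3.36, 3.11 and 3.99 CPM in WT GV pools and 3.78, 3.41 and 3.30 CPM in Null GV pools. In eggs it was 2.19, 2.96 and 3.21 CPM in WT and 4.01, 3.64, 3.62 and 1.71 CPM in Null. The groups overlapped in every comparison, and MII Null replicate 4 was the lowest of all 13 pools. The maturation change was -0.32 (SE 0.26, adjusted p = 0.330) in WT and -0.11 (SE 0.24, adjusted p = 0.742) in Null. The genotype difference was 0.00 (95% interval -0.52 to 0.53) in GV oocytes and 0.22 (-0.29 to 0.73) in eggs.

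Tfb1m, which methylates the rRNA of the small mitochondrial ribosomal subunit, is on chromosome 17 (3519250 to 3557796, minus strand). GV pools held 23.7, 27.0 and 31.6 CPM in WT and 35.2, 27.6 and 31.2 CPM in Null. Egg pools held 20.3, 23.4 and 26.4 CPM in WT and 22.7, 23.4, 26.4 and 24.6 CPM in Null. Stages overlapped in WT and did not in Null. The change in WT was -0.23 (SE 0.12, adjusted p = 0.149), while in Null Tfb1m fell by 0.37 (SE 0.12) on the log2 scale, adjusted p = 0.0132. The difference between the changes was -0.14 (SE 0.17, adjusted p = 0.999). The Null call was lost without GV Null replicate 1, the highest pool (log2 -0.27, adjusted p = 0.0841), and the WT change passed under scaling by library size alone (log2 -0.43, adjusted p = 0.00719) and with only genes of at least 5 CPM on average (log2 -0.37, adjusted p = 0.0162). Its gene overlaps Tiam2 by 148 bp and spans Cldn20. Tiam2 rose in maturation, from 213 ± 5.09 to 284 ± 4.76 CPM in WT. The strand setting of the counting is not given in the sources used here, so reads in shared stretches could not be assigned with certainty.

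Lrpprc, a large RNA-binding protein that keeps mitochondrial mRNAs stable and polyadenylated, is on chromosome 17 (84705247 to 84790786, minus strand). It stood at 83.6, 80.2 and 80.7 CPM in WT GV pools and at 90.4, 74.8 and 70.1 CPM in Null GV pools. In eggs it stood at 44.6, 46.6 and 48.0 CPM in WT and at 50.0, 50.1, 54.9 and 51.7 CPM in Null. GV and egg pools did not overlap, and in GV Null the pools high in cumulus markers, replicates 2 and 3, were the lower ones. Lrpprc fell by 0.81 (SE 0.09) on the log2 scale in WT, adjusted p = 8.79e-07, to 57.0% of the GV level. In Null it fell by 0.60 (SE 0.08), adjusted p = 9.90e-06, to 65.9%. All 4 Null egg pools lay above all 3 WT egg pools. The log2 difference of 0.15 (95% interval -0.02 to 0.33) had an unadjusted p of 0.0835 and an adjusted p of 0.826 in edgeR. In GV oocytes the difference was -0.05 (-0.24 to 0.13). Without GV Null replicates 2 and 3, which leaves replicate 1 alone, it was 0.15.

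Slirp, the small partner of LRPPRC, is on chromosome 12 (87443896 to 87449924, plus strand). It had 7, 9 and 10 counts in the WT GV libraries and 2, 2 and 4 counts in the Null GV libraries. In eggs it had 0 counts in all 3 WT libraries and 2, 0, 1 and 0 counts in the Null libraries. The WT and Null GV libraries did not overlap. Pooled over libraries, the level in WT GV oocytes was 3.01 times that in Null (95% interval 1.32 to 7.68, counting error only), and a fit with no filter on low counts gave adjusted p = 0.812 for this difference. With 3 counts over the group as the limit that 0 counts allow, the pooled level in WT eggs was at least 6.31-fold below that in WT GV oocytes. The 95% counting interval of this ratio, which also covers the error of the GV counts, starts at 4.77. The fit with no filter gave adjusted p = 0.00380 and DESeq2 gave 0.00857 for that change. In Null the GV level was 3.02 times the egg level (interval 0.724 to 17.6, which includes equal levels). Slirp overlaps Snw1 by 15 bp.

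Polg, the catalytic subunit of the mitochondrial DNA polymerase, is on chromosome 7 (79446231 to 79467911, minus strand). Its level was 4.81, 4.84 and 7.51 CPM in WT GV pools and 5.75, 6.50 and 5.41 CPM in Null GV pools. Egg pools held 4.70, 4.96 and 4.95 CPM in WT and 3.94, 4.83, 5.53 and 4.44 CPM in Null. All groups overlapped, and WT GV replicate 3 stood above the rest. The change in maturation was -0.23 (SE 0.19, adjusted p = 0.342) in WT and -0.33 (SE 0.17, adjusted p = 0.125) in Null. Without WT GV replicate 3 the WT change was 0.01. The Null change passed under scaling by library size alone (log2 -0.56, adjusted p = 0.0126) and with only genes of at least 5 CPM on average (log2 -0.49, adjusted p = 0.0222). The genotype difference was 0.04 (95% interval -0.34 to 0.43) in GV oocytes and -0.06 (-0.43 to 0.31) in eggs. Polg shares 4036 bp with Fanci, which stood at 43.3 ± 2.00 CPM in WT GV oocytes and 45.7 ± 1.96 CPM in WT eggs.

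Polg2, the accessory subunit that lets POLG copy long stretches, is on chromosome 11 (106768204 to 106779537, minus strand). It rested on few reads. WT GV libraries had 23, 28 and 27 counts (0.63 ± 0.10 CPM) and Null GV libraries 33, 40 and 36 counts (0.95 ± 0.12 CPM). WT egg libraries had 1, 15 and 14 counts (0.33 ± 0.26 CPM) and Null egg libraries 23, 11, 9 and 8 counts (0.38 ± 0.16 CPM). All Null GV pools lay above all WT GV pools, and the log2 difference of 0.59 had a 95% interval from -0.49 to 1.67 (adjusted p = 0.883). In maturation Polg2 fell by 1.30 (SE 0.50) on the log2 scale in Null, adjusted p = 0.0367, and stood at -0.92 (SE 0.56, adjusted p = 0.196) in WT, where the stages overlapped. The Null call was lost in 9 of the 22 alternative fits. Among them was the fit without GV Null replicates 2 and 3 (log2 -1.07), which leaves replicate 1 alone. These 9 included leaving out GV Null replicate 2 or 3, or MII Null replicate 2, 3 or 4. Polg2 shares 591 bp with Milr1, which stood at 0.163 ± 0.209 CPM in WT GV oocytes and 0.0677 ± 0.0587 CPM in Null GV oocytes, so its few reads are uncertain there.

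**Figure D2:**
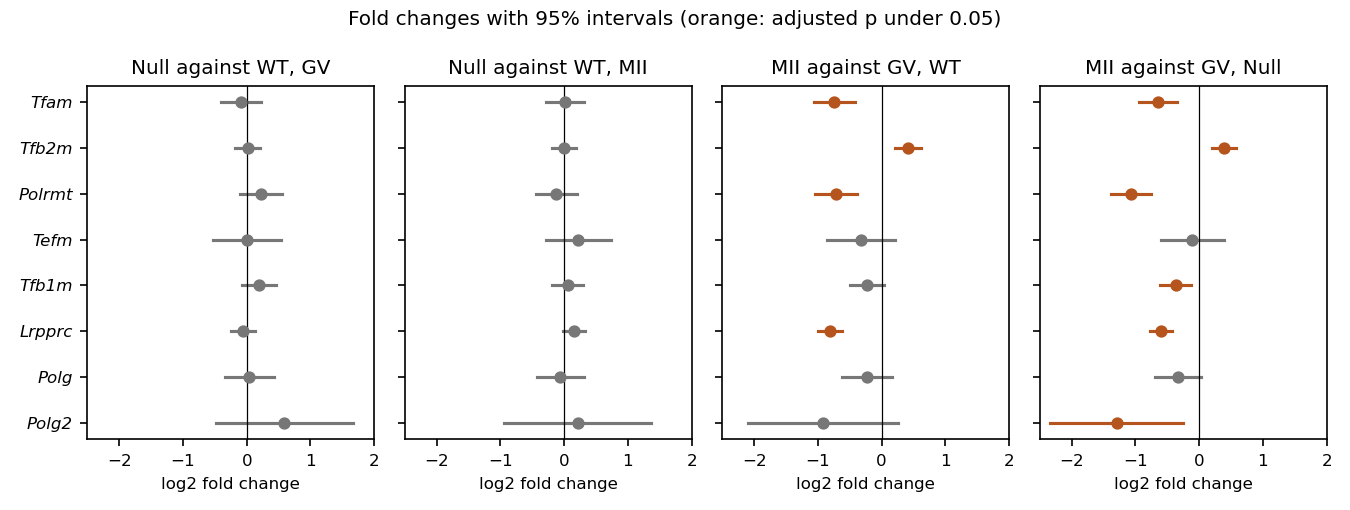
Log2 fold change with its 95% interval for the 8 tested factors in 4 comparisons (Null against WT at each stage, MII against GV in each genotype), from the edgeR fit; orange marks adjusted p under 0.05. No genotype value is orange, and 4 WT and 6 Null maturation values are.

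Ratios of counts within a library do not depend on scaling between libraries. The ratio of Tfb2m to Tfam counts was 1.13 to 1.49 in the 6 GV libraries and 2.17 to 3.32 in the 7 egg libraries. Tfb2m over Polrmt was 1.18 to 1.69 in GV libraries and 2.88 to 4.50 in egg libraries. Tfb2m over Tfb1m, the other member of its methyltransferase family, went from 0.833 to 1.14 in GV libraries to 1.32 to 1.70 in egg libraries. Tfb2m over Lrpprc was 0.310 to 0.373 in GV libraries and 0.634 to 0.790 in egg libraries. In all 4 ratios every egg library stood above every GV library, whatever its genotype. The pairs set Tfb2m, whose level rose, over genes with lower mean levels in eggs. This separation thus follows from the levels given above and adds no separate support. Ratios to Tefm, Polg, Polg2 and Slirp were not taken. The ratios show that the mRNAs changed unequally, not which of a pair changed.

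**Figure D3:**
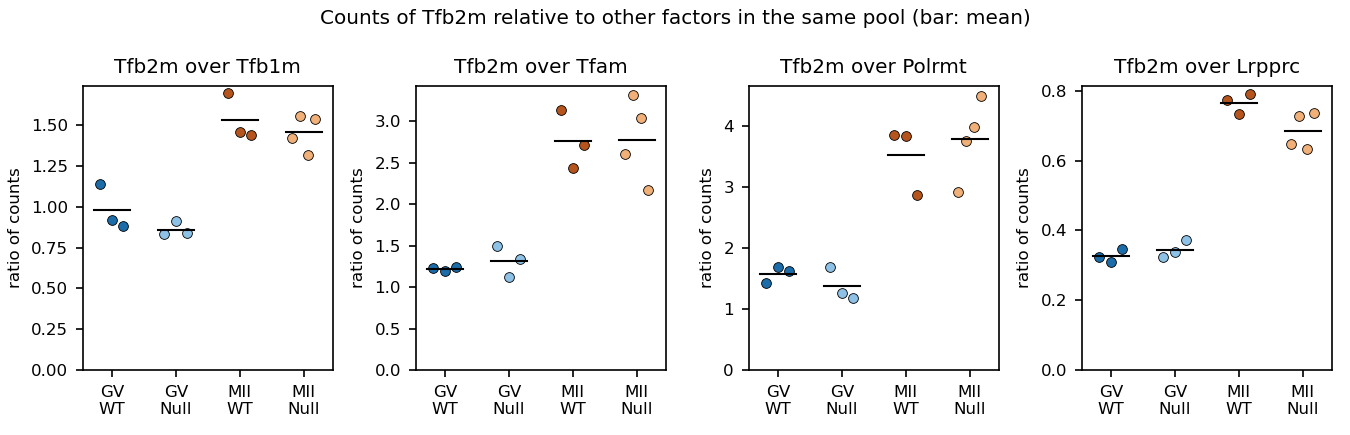
Counts of Tfb2m divided by counts of Tfb1m, Tfam, Polrmt or Lrpprc in the same library, on linear axes from 0; points are libraries and bars group means. Egg libraries lie above GV libraries in each panel, for example 2.17 to 3.32 against 1.13 to 1.49 for Tfb2m over Tfam.

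**Figure D4:**
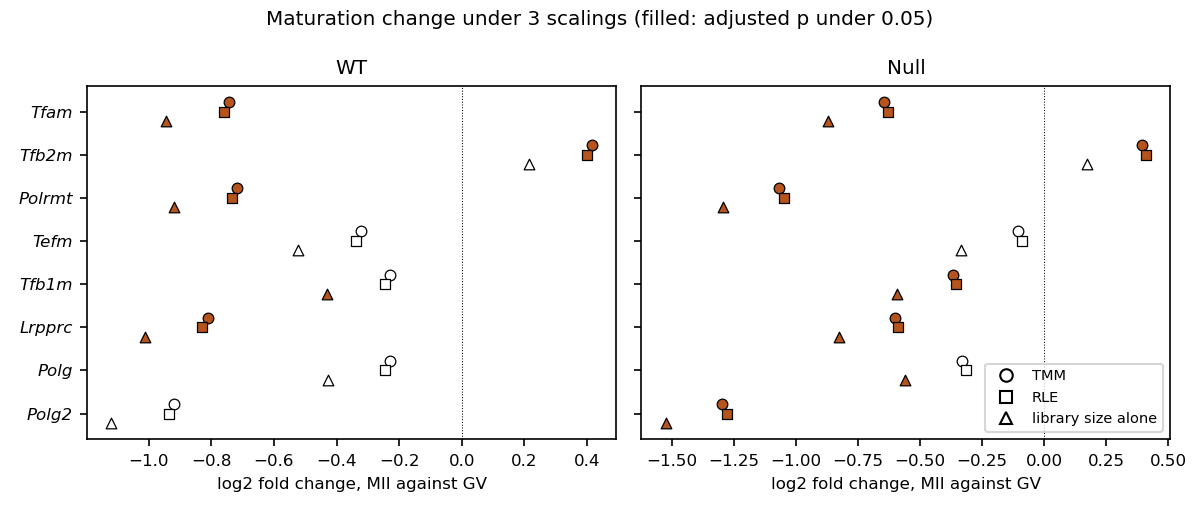
Log2 change from GV to MII of the 8 tested factors in WT (left) and Null (right) under TMM, RLE and library-size scaling; filled symbols have adjusted p under 0.05. TMM and RLE give the same calls, and library size alone moves all values to the left, with Tfb2m at 0.22 in WT and 0.17 in Null no longer called.

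Genes with the most similar pattern over the 13 libraries were sought among 8462 named genes with a mean of at least 5 CPM. Genes with no symbol, or with a Gm number, Rik, clone or pseudogene (-ps) name, were left out. For Tfam, the closest were Gpr155 (Pearson r = 0.98 of log2 CPM), Nat9 (0.96) and C1galt1c1 (0.96). For Polrmt they were Sec61b (0.97), Sod2 (0.96) and Rbx1 (0.96). For Polg they were Hpcal1 (0.86), Rsbn1l (0.81) and Iqcf5 (0.81). The 13 points share the split into stages, which Tfam and Polrmt follow and Polg follows less clearly.

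The wider machinery was described with lists of genes that are not among the 9. Of 11 tested factors of mitochondrial DNA replication and maintenance, 1 rose and 4 fell in WT maturation. The share of all genes called there was 42.7% (19.9% higher, 22.8% lower), and in Null maturation 49.0% (22.1% higher, 26.9% lower). Among genes with a mean of at least 5 CPM, 57.3% were called in WT (34.5% higher, 22.7% lower). In Null 62.4% of such genes were called (39.3% higher, 23.2% lower). The counts of this list and the next 3 are to be read against these shares. Rnaseh1, which removes RNA primers, went from 29.8 ± 0.565 to 12.4 ± 1.34 CPM and fell by 1.27 (SE 0.15) on the log2 scale, adjusted p = 1.90e-06. Ssbp1, the single-strand DNA-binding protein, went from 18.6 ± 0.918 to 8.65 ± 0.577 CPM and fell by 1.10 (SE 0.14), adjusted p = 4.64e-06. Mgme1, a mitochondrial exonuclease, fell by 0.51 (SE 0.14), adjusted p = 0.00511. Lig3, the DNA ligase of mitochondria, rose by 0.46 (SE 0.09), from 74.4 ± 2.89 to 103 ± 0.940 CPM, adjusted p = 0.000256. In Null 2 of the 11 rose and 2 fell, and Mgme1 did not pass (log2 -0.25, adjusted p = 0.116). By library size alone 1 rose and 5 fell in each genotype.

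Of 24 tested factors of transcription termination, RNA processing and decay, 6 rose and 2 fell in WT, and 9 rose and 4 fell in Null, beside 42.7% and 49.0% of all genes called. Fastkd5, which helps to process mitochondrial precursor RNA, fell by 0.94 (SE 0.14), from 13.2 ± 1.96 to 6.88 ± 0.908 CPM in WT, adjusted p = 2.47e-05. Fastkd1, of the same family, rose by 0.56 (SE 0.09), from 35.0 ± 0.981 to 51.7 ± 5.36 CPM, adjusted p = 7.93e-05. Mtpap, the mitochondrial poly(A) polymerase, rose by 0.30 (SE 0.08), adjusted p = 0.00346, and Supv3l1, the helicase of RNA decay, by 0.35 (SE 0.09), adjusted p = 0.00527. The balance of this list depended on scaling: by library size alone 1 rose and 4 fell in WT and 2 rose and 9 fell in Null, and Mtpap (log2 0.10) and Supv3l1 (0.15) no longer passed in WT. Without GV Null replicates 2 and 3, which leaves replicate 1 alone, the median log2 change in Null was 0.13, against 0.07 in the main fit.

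Of 13 tested genes of nucleotide supply to mitochondria, 4 rose and 4 fell in each genotype, beside 42.7% of all genes called in WT and 49.0% in Null. Thymidine kinase Tk2 fell by 1.02 (SE 0.12), from 29.3 ± 0.576 to 14.4 ± 0.802 CPM in WT, adjusted p = 1.44e-06. Sucla2, a subunit of succinyl-CoA ligase, fell by 0.83 (SE 0.10), adjusted p = 1.51e-06. Dguok, the deoxyguanosine kinase, rose by 0.93 (SE 0.13), from 10.7 ± 0.283 to 20.3 ± 3.32 CPM, adjusted p = 9.96e-06. Samhd1, which breaks down deoxynucleotides, rose by 0.45 (SE 0.08), adjusted p = 0.000232. The mitochondrial deoxynucleoside kinases Tk2 and Dguok moved in opposite directions. These 4 passed in the same direction in Null and under scaling by library size alone.

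Of 14 tested nuclear regulators and nucleoid quality-control genes, 1 rose and 8 fell in WT, and 2 rose and 7 fell in Null, beside 22.8% and 26.9% of all genes called lower. The prohibitin Phb2 fell by 1.48 (SE 0.11), from 62.4 ± 2.37 to 22.4 ± 1.54 CPM in WT, adjusted p = 4.63e-09, and Phb by 0.84 (SE 0.08), adjusted p = 1.71e-07. Lonp1, the matrix protease known to degrade TFAM, fell by 0.93 (SE 0.13), from 49.3 ± 0.827 to 25.9 ± 2.92 CPM, adjusted p = 1.85e-05. Pprc1, a coactivator related to PGC-1, rose by 0.38 (SE 0.10), adjusted p = 0.00610, and did not pass by library size alone (log2 0.18). By library size alone 0 rose and 9 fell in each genotype. Without GV Null replicates 2 and 3, which leaves replicate 1 alone, the median log2 change in Null was -0.19, against -0.51 in the main fit.

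The mRNAs made from the mitochondrial genome rose while Tfam, Polrmt and Lrpprc fell. All 13 mitochondrially encoded mRNAs rose in WT and in Null, beside 19.9% and 22.1% of all genes called higher. Among genes with a mean of at least 5 CPM, 34.5% and 39.3% were called higher. The median log2 change of the 13 mRNAs was 1.77 in WT and 1.56 in Null. Their summed level was 3761 ± 409 CPM in WT GV oocytes and 10572 ± 904 CPM in WT eggs, and 5265 ± 810 and 12809 ± 1876 CPM in Null. The 9 factors summed to 184 ± 7.98 CPM in WT GV oocytes and 137 ± 10.9 CPM in WT eggs, and to 187 ± 13.0 and 142 ± 4.69 CPM in Null. Within the WT sums Lrpprc alone went from 81.5 ± 1.84 to 46.4 ± 1.72 CPM, while Tfb2m rose. The sums therefore do not describe each factor. Scaling by library size alone left 12 of the 13 mRNAs called in WT and 13 in Null. Between genotypes, Null against WT, 12 of the 13 mRNAs had a value above 0 in GV oocytes and 11 of the 13 in eggs. An unadjusted edgeR p under 0.05 was found for 11 of the 13 in GV oocytes and 7 in eggs, beside 6.66% and 6.35% of all genes. These counts take in both directions and include mt-Nd3, which was lower in Null. The 13 mRNAs come from 1 genome and are not separate observations, so these shares give no test of them. Only 1 of the 13 was called at each stage, beside 0.0546% of all genes. This was mt-Nd3, a subunit of complex I, lower in Null and named after its values were seen. It stood at 21.0 ± 4.53 CPM in WT and 9.06 ± 0.874 CPM in Null GV oocytes (adjusted p = 0.000735), and at 72.8 ± 2.29 and 34.9 ± 4.33 CPM in eggs (adjusted p = 0.000722). The median log2 difference of the 13 in GV oocytes was 0.48. Without GV Null replicates 2 and 3, which leaves replicate 1 alone, that median was 0.23. No relation between factors and transcripts was tested.

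**Figure D5:**
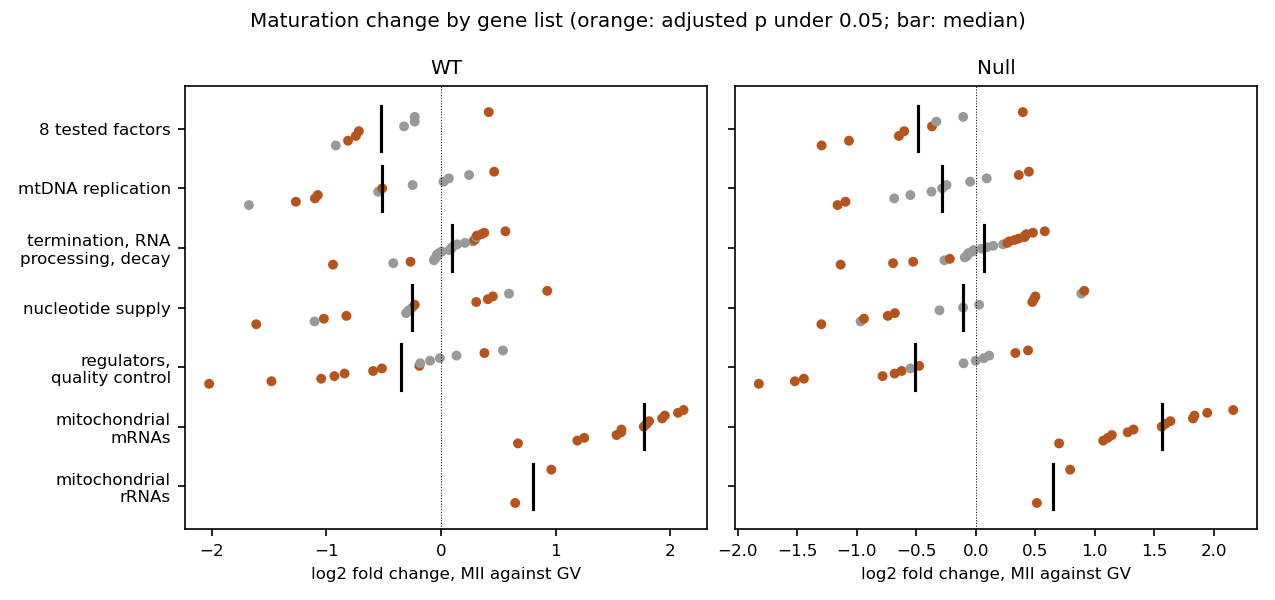
Log2 change from GV to MII of each tested gene, by list, in WT (left) and Null (right); orange points have adjusted p under 0.05 and black bars are list medians. The factors' medians lie at -0.52 and -0.49, those of the mitochondrial mRNAs at 1.77 and 1.56.

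None of the 4 lists of nuclear genes held a call between genotypes. By edgeR 0 genes passed in each list at each stage, with unadjusted p under 0.05 for 0 of 11, 2 of 24, 1 of 13 and 0 of 14 in GV oocytes, and for 0 of 11, 2 of 24, 1 of 13 and 2 of 14 in eggs, in the order above. Among all genes 6.66% and 6.35% had such a p. In GV oocytes the smallest p values by list belonged to the helicase Twnk (log2 0.18) and Rnaseh1 (-0.19), to Hsd17b10 (0.82) and Mterf1b (-0.36), to Slc25a36 (0.47) and Abat (-0.21), and to Phb (-0.17) and Clpx (-0.17). Mterf1b has a near-identical copy, Mterf1a, so its reads are uncertain. In eggs they belonged to Mgme1 (0.18) and Top1mt (0.92), to Trmt10c (-0.30) and Mterf3 (-0.39), to Suclg1 (0.50) and Tymp (0.71), and to Ppargc1a (-1.37) and Ppargc1b (0.28). Ppargc1a, a coactivator of mitochondrial biogenesis, stood at 1.73 ± 0.881 CPM in WT eggs and 0.672 ± 0.333 CPM in Null eggs, with adjusted p = 0.572.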

How the data were processed

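RNA of 13 pools was sequenced as 65 bp single-end reads, from libraries the labels list as poly(A) RNA. The deposited table holds raw counts per gene, with no normalization, for 54232 genes. The submitters' processing notes name STAR 2.5.3a, bedtools 2.26.0 and the builds GRCm38.p6 and mm10. How reads were counted, whether by strand, and what became of reads with several positions is not given in the sources used here. Spike-in counts are not used here. Symbols came from a table of names (54079 genes with a symbol, 153 without), and Prorp was matched through a RefSeq synonym.

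Counts were fitted in edgeR 4.0.16 (R 4.3.3) with TMM factors and filterByExpr by group, glmQLFit (robust) and glmQLFTest, two-sided, in 1 model with 4 groups and 20143 genes. Alternatives were RLE and library-size scaling, DESeq2 1.42.0, no filter, a mean of at least 5 CPM, a minimum of 1.5-fold, only the groups compared, a replicate block, the cumulus markers as a covariate, and fits without single libraries or without GV Null replicates 2 and 3. The fit without GV Null replicates 2 and 3 leaves replicate 1 alone in that group, so only effect sizes are given for its lists. List counts under other scalings and list medians without doubted libraries were added after seeing the data. The edgeR script was run on simulated data with changes planted only in genes of at least 5 CPM on average. That run does not cover genes of lower level, such as Polg2, or a comparison in which as many genes change as in maturation. Limits of detection (3 counts) and intervals of pooled counts cover counting error only, since reads carry no molecular identifiers.

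The members and the lists were chosen with earlier results of these data known. Named were the 9 factors. Per pathway list the rule took up to 4 genes called in WT maturation with at least 5 CPM in the higher group, by smallest p, and up to 2 genes per genotype comparison with the smallest p. For Tfam, Polrmt and Polg it took the 3 genes with the highest Pearson r. Distances of promoter motifs are from the transcript start that the RefSeq table lists, which can lie inside the gene's outer bounds.

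Libraries of 1 group differed by more than counting noise (chi-square per degree of freedom at least 5.03), so none was treated as a repeated deposit of another. This does not show that they came from separate females.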

Additional observations from a re-analysis of the deposited data

Results flagged for a closer look

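In the group of 4 MII Null libraries, the only group large enough for a check of single libraries, Tefm in replicate 4 stood at 1.71 CPM, apart from 3.62, 3.64 and 4.01 CPM in the others. Its gap to the nearest library was 0.830 of the group's range, just past Dixon's 95% critical value of 0.829 for 4 libraries. Of the 9 factors 1 passed, and chance passes about 1 in 20. Without this library the maturation change of Tefm in Null was 0.08 on the log2 scale (adjusted p = 0.741) in place of -0.11.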

How the results depend on the processing

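The count of factors called stayed at 0 in all genotype comparisons under every alternative run. A minimum of 1.5-fold left 1 called factor in WT maturation (Lrpprc) and 1 in Null maturation (Polrmt), in place of 4 and 6; the other alternatives gave 4 or 5 in WT and 4 to 6 in Null. Of 364 maturation values of single factors 336 kept their direction and call, 21 lost the call, 4 gained it and 3 turned sign. Of 538 genotype and stage-difference values 490 kept their direction and 48 turned sign, none of which passed. Library-size scaling moved the share of higher genes among all calls from 46.6% to 23.7% in WT maturation and from 45.2% to 21.4% in Null maturation. The causes were not tested.

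Values that turned sign, all log2, were as follows. RLE scaling gave Tfb2m -0.0012 and Tefm -0.010 in GV oocytes, and Tfb2m 0.010 in eggs and 0.011 for the stage difference. With no filter Tefm was -0.0089 in GV oocytes, and Tfb2m was 0.00046 in eggs and 0.00013 for the stage difference. DESeq2 gave Tfb2m -0.0033 and Tefm -0.012 in GV oocytes, and Tfb2m 0.011 in eggs and 0.014 for the stage difference. Lrpprc in GV oocytes was 0.054 with the cumulus covariate and 0.15 without GV Null replicates 2 and 3. Leaving out single libraries, the GV difference ranged from -0.058 to 0.057 for Tfb2m, -0.074 to 0.11 for Tefm, -0.072 to 0.28 for Polg and -0.17 to 0.018 for Lrpprc. The egg difference ranged from -0.14 to 0.095 for Tfam, -0.035 to 0.15 for Tfb1m, -0.033 to 0.043 for Tfb2m, -0.22 to 0.089 for Polrmt, -0.13 to 0.024 for Polg and -0.32 to 0.67 for Polg2. The stage difference ranged from -0.048 to 0.19 for Tfam, -0.063 to 0.052 for Tfb2m, -0.34 to 0.015 for Polg and -0.90 to 0.081 for Polg2. Maturation ranged from -0.34 to 0.015 for Polg in WT and from -0.26 to 0.084 for Tefm in Null.

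No clear pairing by replicate number was seen: over 18 same-numbered pairs the correlation of deviations ran from -0.20 to 0.22, with 3 over 0.1. With so few libraries per group, this does not exclude that same-numbered pools shared a collection or females. With the replicate block 4 factors were called in WT maturation and 5 in Null, where Polg2 lost its call (log2 -1.08). The block turned Tfam to -0.16 in eggs and -0.069 in the stage difference, and Tefm to 0.10 in Null maturation. Low counts limit Polg2 and Slirp.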
